A study of Homo sapiens with 6 samples.

Results

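The genes for eukaryotic translation initiation factors were followed in HSC-4 cells, an established cell line from human oral squamous cell carcinoma, after treatment with the γ-secretase inhibitor DAPT. Members were chosen by a rule on names, set with earlier results of these data known. The rule took protein-coding genes whose symbol begins with EIF and a digit from 1 to 6. It left out the 4 eIF2 kinase genes *EIF2AK1* to *EIF2AK4*. This gave 52 of the 58884 genes counted, of which 47 passed the filter on low counts. RNA was sequenced in 3 libraries labelled DAPT, from cells given 50 μM of the inhibitor for 24 h, and 3 libraries labelled control. The controls are described in the paper's methods as vehicle-treated, with DMSO. DAPT blocks γ-secretase, whose cut frees the signaling part of Notch receptors, and the comparison asks which transcripts change when it is blocked. The count columns of the control libraries carry the unexplained letters GM, and should these stand for culture without DMSO, vehicle and inhibitor cannot be told apart. All samples come from 1 cell line, and the labels do not say whether the 3 libraries of a group are separate experiments. The p-values therefore measure only the spread between these libraries, which may be technical.

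Initiation is the step of protein synthesis in which the ribosome finds the start codon of an mRNA. The small ribosomal subunit carries eIF1, eIF1A, eIF3, eIF5 and a complex of eIF2, GTP and the initiator tRNA, and it is recruited to the capped 5′ end by eIF4F, made of the cap-binding protein eIF4E, the scaffold eIF4G and the helicase eIF4A. The guanine nucleotide exchange factor eIF2B recharges eIF2, and the 4E-binding proteins keep eIF4E away from eIF4G until the kinase mTOR phosphorylates them. Several of these factors are known to be abundant in carcinomas, and some of their mRNAs begin with a 5′ terminal oligopyrimidine (TOP) tract, a C followed by a run of pyrimidines, through which mTOR controls their translation.

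Start sites with such a tract are shown first, since they are a feature that the choice of genes did not use and since members on both sides of the comparison carry one. RefSeq promoter sequences (GRCh38.p14) were at hand for 39 of the 47 tested members. A C as the first transcribed base followed by at least 4 pyrimidines was found at an annotated start of 9 of these 39 genes (23.1%), against 7.34% of the 11073 tested genes with an entry. The 9 stretches run 5′ to 3′ on the strand of the gene and hold 20 bases before the start and 20 from the start on, and capitals mark the run of pyrimidines from the first transcribed base.
EIF2A, chr3:150546767-150546806, plus strand: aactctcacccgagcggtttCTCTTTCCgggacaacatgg
EIF2D, chr1:206612446-206612485, minus strand: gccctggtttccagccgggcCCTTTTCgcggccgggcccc
EIF2S3, chrX:24054936-24054975, plus strand: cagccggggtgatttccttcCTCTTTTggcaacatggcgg
EIF3D, chr22:36529147-36529186, minus strand: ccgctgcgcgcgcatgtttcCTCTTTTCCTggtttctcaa
EIF3F, chr11:7987317-7987356, plus strand: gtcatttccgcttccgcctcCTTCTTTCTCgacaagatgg
EIF3K, chr19:38619168-38619207, plus strand: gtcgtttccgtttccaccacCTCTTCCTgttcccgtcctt
EIF3M, chr11:32583811-32583850, plus strand: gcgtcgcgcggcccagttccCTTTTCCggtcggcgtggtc
EIF4A2, chr3:186783557-186783596, plus strand: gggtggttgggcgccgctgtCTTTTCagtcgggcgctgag
EIF4B, chr12:53006436-53006475, plus strand: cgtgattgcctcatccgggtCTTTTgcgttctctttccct
In the comparison given next, *EIF2A*, *EIF3D*, *EIF3K*, *EIF3M* and *EIF4B* were lower with DAPT, *EIF2D* and *EIF4A2* were higher, and *EIF2S3* and *EIF3F* did not pass the test. For contrast, the members with the largest increase and the largest decrease start differently, and here the capital marks only the first transcribed base.
EIF1, chr17:41688865-41688904, plus strand: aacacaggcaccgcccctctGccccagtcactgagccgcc
EIF3I, chr1:32222387-32222426, plus strand: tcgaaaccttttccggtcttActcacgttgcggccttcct
A match of letters is a description of the annotated start and not evidence that the transcript begins there in HSC-4 cells.

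Total counts lay between 12276313 and 16317672 reads per library. At this depth 3 reads, taken as the smallest signal, correspond to between 0.187 and 0.248 CPM, the read count scaled to a common library size with TMM factors, and this limit covers counting error only. Of the 6 markers of squamous epithelium, all were read in every control library, from *KRT5* at 2635 to 2757 CPM down to *KRT14* at about 3 CPM. Their sum moved with the treatment, from between 4344 and 4542 CPM in the control to between 2419 and 2524 CPM in the DAPT libraries, and its part in the results below was not tested. The library labelled control replicate 1 stood apart in fibroblast markers. It held 215 CPM of the fibroblast collagen *COL1A2*, 274 CPM of *COL1A1* and 6.35 CPM of *PDGFRB*, against 0.19 to 2.02, 48.3 to 54.0 and 0.073 to 0.433 CPM in the other 5 libraries. Summed over the 5 markers of fibroblasts, endothelium and blood cells, this library held 494.9 CPM and the others between 48.8 and 56.3, while the blood cell marker *PTPRC* was at 0 reads in it and the endothelial marker *PECAM1* at 0.062 CPM. The counts of members are therefore also given without that library.

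DAPT changed the initiation factor transcripts in both directions and by modest amounts. Of the 47 tested members, 10 rose and 15 fell, taking a change as called where the edgeR quasi-likelihood p, adjusted over all 15001 tested genes by the Benjamini-Hochberg method, was under 0.05. These are 21.3% and 31.9% of the tested members, against 17.2% of all tested genes that rose and 18.0% that fell. The balance depended on the scaling, since with library size alone in place of TMM 11 members rose and 10 fell. Well-expressed genes pass such a test more easily, and among the 8322 genes with a mean of at least 20 CPM 43.7% passed, 22.0% higher and 21.7% lower, against 25 of the 44 members at that level (56.8%). The log2 fold changes ran from -0.41 for *EIF3I* to 0.49 for *EIF1*, so that 0 members changed 2-fold. Their median was -0.07, where that of all tested genes was 0.01. The median absolute change was 0.15 for the members and 0.15 for genes with at least 20 CPM. Groups did not overlap in 10 tested members that were higher and 18 that were lower with DAPT. Over all tested genes, 23.6% were higher and 22.7% lower without overlap. Without control replicate 1, 10 members rose and 13 fell, the differences being *EIF5B*, *EIF2A* and *EIF3M*, which lost their call, and *EIF6*, which gained one.

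**Figure D1:**
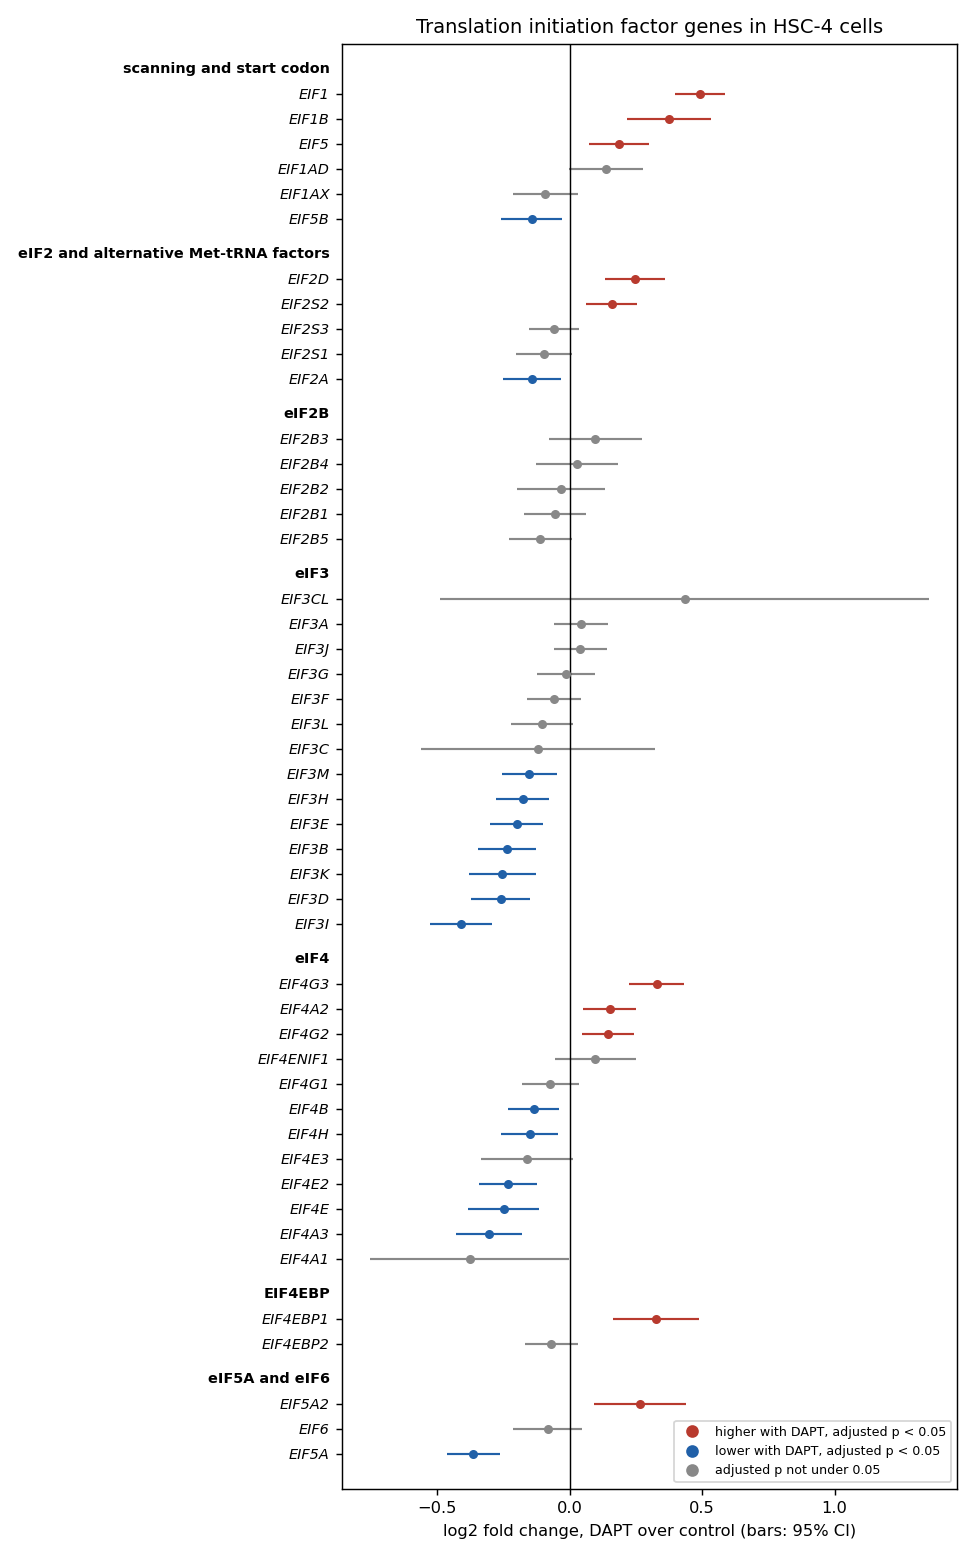
The x axis gives the log2 fold change of DAPT over control libraries for the 47 tested initiation factor genes by complex, with 95% confidence intervals from edgeR (3 libraries per group). The eIF3 genes that passed the test lie between -0.41 and -0.15, the eIF2B genes sit around 0, and *EIF1* stands farthest to the right at 0.49.

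The factors that scan for the start codon held the largest increase. *EIF1* (chromosome 17, 41688885 to 41692668, plus strand) encodes the factor that keeps the scanning ribosome open and rejects poor start codons. Its level was 391, 399 and 383 CPM in control replicates 1 to 3 and 544, 557 and 549 CPM in DAPT replicates 1 to 3. All DAPT libraries lay above all control libraries, and the means were 391 ± 7.93 and 550 ± 6.86 CPM (SD, n = 3 each). The log2 fold change was 0.49 (SE 0.05, edgeR adjusted p = 2.91e-08), an increase of 40.6%. Its paralog *EIF1B* was at 21.8, 23.3 and 21.0 CPM in the control and 27.7, 28.5 and 29.4 CPM in the DAPT libraries. These groups did not overlap either, and the log2 fold change was 0.37 (SE 0.08, edgeR adjusted p = 6.5e-04).

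*EIF5*, whose protein makes eIF2 hydrolyse GTP once a start codon is met and so acts against eIF1 in start codon choice, was at 352, 335 and 315 CPM in the control and 356, 408 and 378 CPM in the DAPT libraries. Here the gap between the groups was narrow, as the lowest DAPT library lay just above the highest control library. The log2 fold change was 0.19 (edgeR adjusted p = 0.0117) and passed in 4 of the 6 fits that left out a library. *EIF5B*, for the GTPase that joins the ribosomal subunits, was at 244, 225 and 226 CPM in the control and 227, 198 and 205 CPM in the DAPT libraries. Its groups overlapped, and its adjusted p of 0.0492 (log2 fold change -0.14, edgeR) rose to 0.128 without control replicate 1. *EIF1AX*, which encodes eIF1A, had a log2 fold change of -0.09 with a 95% confidence interval from -0.21 to 0.03, and *EIF1AD* one of 0.14. *EIF1AY*, on the Y chromosome, was counted as a member, and its values are not given.

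The 3 subunits of eIF2 did not move alike. *EIF2S2*, which encodes the β subunit, was at 369, 365 and 356 CPM in the control and 418, 401 and 397 CPM in the DAPT libraries, without overlap (log2 fold change 0.16, edgeR adjusted p = 0.0117). Of the 75-base stretches of its transcripts 19.3% also occur in another gene, and reads from them were not counted. *EIF2S1*, for the α subunit that stress kinases phosphorylate, was at 458, 406 and 419 CPM in the control and 391, 404 and 406 CPM in the DAPT libraries. Its highest value came from control replicate 1, the groups overlapped, and the log2 fold change of -0.10 had an interval from -0.20 to 0.01. *EIF2S3*, for the γ subunit that binds GTP and the initiator tRNA, had a log2 fold change of -0.06 (interval -0.16 to 0.04). The retrogene copy *EIF2S3B* held at most 4 reads in any library and was not tested.

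Of the factors that deliver the initiator tRNA without eIF2, *EIF2D* was at 64.1, 65.4 and 64.9 CPM in the control and 78.0, 78.6 and 73.8 CPM in the DAPT libraries. All DAPT values lay above the narrow control range (log2 fold change 0.25, SE 0.05, edgeR adjusted p = 0.00137). *EIF2A* moved the other way, from 145 ± 8.63 to 132 ± 3.34 CPM (SD, n = 3 each). Its groups did not overlap, but the call (log2 fold change -0.14, edgeR adjusted p = 0.0421) was lost in 5 of the 6 fits that left out a library, with an adjusted p of 0.119 without control replicate 1.

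None of the 5 genes for eIF2B passed, that is 0 of 5 where 35.2% of all tested genes passed edgeR's test in either direction. The count was 0 also at an unadjusted p under 0.05, in DESeq2 and in limma-voom. *EIF2B1*, *EIF2B2* and *EIF2B4* had log2 fold changes of -0.06, -0.03 and 0.03, *EIF2B3* one of 0.10 and *EIF2B5*, the catalytic subunit, one of -0.11. The 95% intervals of the 5 genes all lay between -0.23 and 0.27. *EIF2B5* was the one gene of the complex whose groups did not overlap, at 65.5, 64.8 and 69.0 CPM in the control and 62.4, 61.2 and 60.8 CPM in the DAPT libraries (edgeR adjusted p = 0.137). Summed over the 5 genes, the complex held 219.8, 220.4 and 217.3 CPM in the control and 207.9, 219.0 and 213.0 CPM in the DAPT libraries. These sums overlapped.

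The eIF3 complex, the largest of the factors and the platform on which the others assemble on the small subunit, changed downward where it changed. Of its 14 tested genes, 7 fell and 0 rose in edgeR's test, and 11 had a negative log2 fold change. DESeq2 and limma-voom gave 7 and 0 as well, and 0 rose at an unadjusted p under 0.05. The median of the 14 was -0.14, against 0.01 over all tested genes. Summed over the 14 genes, the control libraries held 2456, 2501 and 2455 CPM and the DAPT libraries 2256, 2234 and 2276 CPM. The genes that fell were *EIF3I*, *EIF3D*, *EIF3K*, *EIF3B*, *EIF3E*, *EIF3H* and *EIF3M*, and in each of them every DAPT library lay below every control library. Over all tested genes, 22.7% were lower without overlap and 18.0% fell by the test, and for eIF3 these numbers were 8 and 7 of 14. Leaving out control replicate 1 left 6 of the 7 calls, with *EIF3M* at an adjusted p of 0.0526 (edgeR).

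*EIF3I* (chromosome 1, 32221928 to 32231604, plus strand), a WD-repeat subunit of the module formed with eIF3b and eIF3g, showed the largest decrease of all members. Its level was 111, 123 and 115 CPM in the control and 83.1, 91.9 and 87.2 CPM in the DAPT libraries. The highest DAPT library stayed well below the lowest control library, and the log2 fold change was -0.41 (SE 0.06, edgeR adjusted p = 7.05e-06), a fall from 116 ± 5.96 to 87.4 ± 4.42 CPM (SD, n = 3 each). Of its partners, *EIF3B*, the scaffold of that module, was at 428, 466 and 452 CPM in the control and 355, 384 and 404 CPM in the DAPT libraries (log2 fold change -0.24, edgeR adjusted p = 0.00142). *EIF3G*, the RNA-binding partner in that module, was at 116 ± 3.09 and 115 ± 5.31 CPM (SD, n = 3 each). The fitted change was -0.01 on the log2 scale, with an interval from -0.12 to 0.10, which does not overlap that of *EIF3I*, from -0.53 to -0.29.

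*EIF3D* encodes the subunit that can bind the mRNA cap. It was at 98.3, 106 and 105 CPM in the control and 89.2, 83.5 and 84.7 CPM in the DAPT libraries (log2 fold change -0.26, SE 0.05, edgeR adjusted p = 6.95e-04). In the core built from PCI and MPN domain subunits, *EIF3K* fell from 73.4 ± 4.72 to 61.6 ± 2.42 CPM and *EIF3E* from 350 ± 13.4 to 304 ± 5.29 CPM (SD, n = 3 each). *EIF3H* fell from 309 ± 10.4 to 273 ± 6.91 CPM and *EIF3M* from 148 ± 6.36 to 133 ± 0.659 CPM (SD, n = 3 each). The edgeR adjusted p-values of these 4 genes ran from 0.00244 for *EIF3K* to 0.0231 for *EIF3M*. The other core genes did not pass. *EIF3A*, the largest subunit, had a log2 fold change of 0.04 (interval -0.06 to 0.15), *EIF3F* one of -0.06 and *EIF3L* one of -0.10. For *EIF3L* 41.1% of the exonic bases lie under another gene of that strand, where reads were not counted. *EIF3J*, for the loosely bound subunit at the decoding site, had a log2 fold change of 0.04 (interval -0.06 to 0.14).

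Levels of different genes can be set beside each other only per length, so CPM were divided by exonic length in kb. That length joins all annotated exons of a gene, 1725 bases for *EIF3I* and 6005 for *EIF3E*. The length of the transcripts made in these cells was not measured, so the order of genes depends on the annotation. In CPM per kb, the control level of eIF3 transcripts was highest for *EIF3I* (67.3 ± 3.46), *EIF3A* (59.5 ± 1.92), *EIF3E* (58.2 ± 2.23) and *EIF3J* (54.3 ± 0.583 CPM per kb, SD, n = 3 each). Of these neighbours, *EIF3A* and *EIF3E* differed by less than their SDs. With DAPT the order changed at the top, since *EIF3I* came to 50.7 ± 2.56 and *EIF3E* to 50.7 ± 0.881 CPM per kb, below *EIF3A* at 61.3 ± 2.73 and *EIF3J* at 55.9 ± 1.70 (SD, n = 3 each). *EIF3C* and *EIF3CL* stood near 0, at 0.746 and 0.168 CPM per kb in the control libraries. They are near-identical copies on chromosome 16, with 95.9% of the 75-base stretches of *EIF3CL* also found in *EIF3C*, and reads matching both copies are absent from the counts. Of the stretches of *EIF3C*, 41.2% also occur in *EIF3CL*, and why its counts were this low was not tested. *EIF3C* was at 4.11, 6.21 and 5.30 CPM in the control and 3.18, 5.41 and 5.84 CPM in the DAPT libraries. *EIF3CL* was at 0.436, 0.794 and 0.331 CPM in the control and 0.909, 0.804 and 0.384 CPM in the DAPT libraries. Both overlapped between the groups, the level of this subunit cannot be read from them, and the log2 fold changes of -0.12 and 0.43 had intervals from -0.56 to 0.32 and from -0.49 to 1.36.

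**Figure D2:**
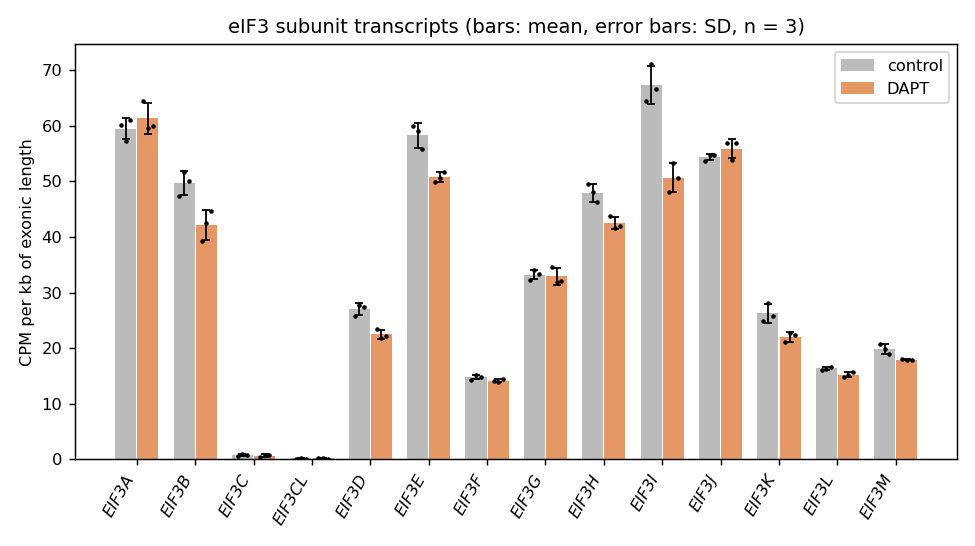
Bars give the mean CPM per kb of exonic length of the 14 eIF3 genes in 3 control (grey) and 3 DAPT (orange) libraries, points the single libraries and error bars the SD. *EIF3I* went from 67.3 to 50.7 CPM per kb while *EIF3A* was at 59.5 and 61.3. The copies *EIF3C* and *EIF3CL* lie near 0, and reads matching both were not counted.

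The eIF4 genes moved both ways. Of 12 tested, 3 rose and 5 fell in edgeR's test, where 17.2% of all tested genes rose and 18.0% fell, and their median log2 fold change was -0.14. Of the cap-binding genes, *EIF4E* and *EIF4E2* fell. *EIF4E* (chromosome 4, 98871684 to 98930637, minus strand), which encodes the cap-binding subunit of eIF4F, was at 52.6, 52.9 and 53.3 CPM in the control and 43.9, 47.2 and 42.3 CPM in the DAPT libraries. The control libraries differed by less than 1 CPM and all DAPT libraries lay below them (log2 fold change -0.25, SE 0.07, edgeR adjusted p = 0.00495). *EIF4E2*, for the homologue that binds caps without joining eIF4G1 and can repress translation, was at 90.0, 88.1 and 88.2 CPM in the control and 76.6, 75.8 and 74.2 CPM in the DAPT libraries. This was a log2 fold change of -0.23 (edgeR adjusted p = 0.0014), again without overlap. *EIF4E3* was at 30.3, 25.0 and 27.1 CPM in the control and 23.3, 26.0 and 24.6 CPM in the DAPT libraries, which overlapped (log2 fold change -0.16, interval -0.34 to 0.01). *EIF4E1B* held at most 1 read in any library and was not tested.

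The promoter of *EIF4E* holds the E-box letters CACGTG, the sequence bound by MYC and related factors, at 2 places, whose first bases lie 225 and 72 bases before the annotated start. It is shown because the other members that fell and hold these letters, *EIF3K*, *EIF4A3*, *EIF4B* and *EIF4H*, have 1 match each. *EIF5A2*, which rose, and *EIF4G1*, which did not pass, also have 2. The stretch runs 5′ to 3′ on the minus strand of GRCh38.p14, with the matches in capitals.
EIF4E, chr4:98929190-98929368, minus strand: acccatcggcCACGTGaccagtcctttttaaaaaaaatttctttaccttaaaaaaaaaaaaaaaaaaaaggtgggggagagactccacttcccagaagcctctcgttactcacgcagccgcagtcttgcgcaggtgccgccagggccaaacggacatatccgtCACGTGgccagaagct
CACGTG, which reads the same on both strands, was found within 250 bases before to 50 bases after an annotated start in 10 of 39 members (25.6%), namely in 5 of 13 that fell, 2 of 8 that rose and 3 of 18 others. Among tested genes with an entry the share was 12.2%, and among all 35116 RefSeq promoters at hand it was 7.26%. TGATGNAA, the response element of ATF4 and its partners, was searched on both strands and found in 1 of 39 members, *EIF4E3*, and in 2.76% of tested genes with an entry. *EIF4EBP1* had no entry.

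The scaffold genes rose or did not pass. *EIF4G3*, for a scaffold closely related to eIF4G1, was at 113, 110 and 107 CPM in the control and 143, 136 and 136 CPM in the DAPT libraries. All DAPT libraries lay above the control range, with a log2 fold change of 0.33 (SE 0.05, edgeR adjusted p = 3.12e-05), an increase of 25.5%. *EIF4G2*, which encodes a scaffold that lacks the eIF4E-binding part and was the most read of all members, was at 900, 863 and 850 CPM in the control and 945, 954 and 988 CPM in the DAPT libraries (log2 fold change 0.14, edgeR adjusted p = 0.0212). The groups did not overlap, yet this call passed in only 2 of the 6 fits that left out a library. *EIF4G1*, the main scaffold, was at 572, 623 and 623 CPM in the control and 608, 547 and 573 CPM in the DAPT libraries, which overlapped (log2 fold change -0.07, interval -0.18 to 0.03).

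For the helicases, *EIF4A2* was at 413, 392 and 393 CPM in the control and 426, 459 and 445 CPM in the DAPT libraries (log2 fold change 0.15, edgeR adjusted p = 0.0188). The groups were separate by a small gap, and the call passed in 2 of the 6 fits that left out a library. *EIF4A3*, whose protein sits in the exon junction complex and not in eIF4F, was at 173, 186 and 176 CPM in the control and 129, 149 and 156 CPM in the DAPT libraries (log2 fold change -0.30, SE 0.06, edgeR adjusted p = 5.31e-04). *EIF4A1*, the main helicase of eIF4F, was at 4.36, 4.77 and 5.14 CPM in the control and 3.05, 4.68 and 3.23 CPM in the DAPT libraries. Other genes on the same strand cover 48.6% of its exonic bases, and 37.1% of its 75-base stretches occur in another gene. Reads from these parts were not counted, so its level cannot be read from its counts. The helicase cofactors *EIF4B* and *EIF4H* fell from 393 ± 5.19 to 357 ± 7.13 CPM and from 401 ± 6.72 to 361 ± 23.0 CPM (SD, n = 3 each), with log2 fold changes of -0.14 and -0.15 (adjusted p = 0.0255 and 0.0246, edgeR). Both passed in 2 of the 6 fits that left out a library. *EIF4ENIF1*, for the transporter that carries eIF4E into the nucleus, had a log2 fold change of 0.10 (interval -0.05 to 0.25).

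**Figure D3:**
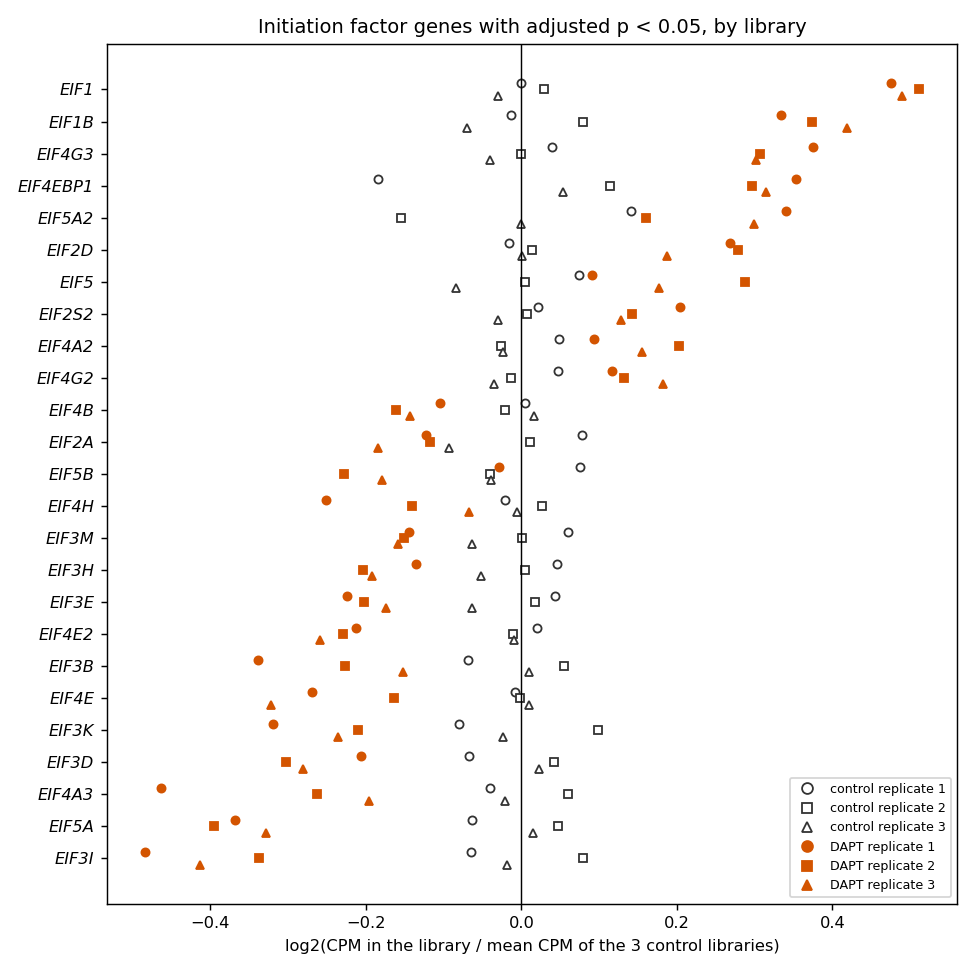
For each of the 25 initiation factor genes called in edgeR's test, the x axis gives log2 of the CPM of a library over the mean of the 3 control libraries, with open symbols for control and filled symbols for DAPT libraries. The filled symbols lie wholly on one side of the open ones in all of these genes but *EIF5B*. The genes were picked by a test on these same libraries, so the separation adds no support. Over all tested genes, 46.3% did not overlap in either direction.

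The 4E-binding proteins, which block eIF4E when mTOR is inactive, were read at different levels. *EIF4EBP1*, on chromosome 8, was at 29.1, 35.7 and 34.3 CPM in the control and 42.2, 40.6 and 41.1 CPM in the DAPT libraries. Every DAPT library lay above every control library, the lowest value being that of control replicate 1. The log2 fold change was 0.33 (SE 0.08, edgeR adjusted p = 0.00271) and the adjusted p was 0.00761 without that library. *EIF4EBP2* was at 201, 201 and 198 CPM in the control and 194, 183 and 195 CPM in the DAPT libraries. Its groups did not overlap, but the difference was small and did not pass (log2 fold change -0.07, interval -0.17 to 0.03, edgeR adjusted p = 0.286). *EIF4EBP3* held at most 2 reads in any library and was not tested, and 73.2% of its exonic bases lie under the readthrough gene *ANKHD1-EIF4EBP3*, where reads were not counted. Per kb of exonic length, the control level was 37.5 ± 3.98 CPM for *EIF4EBP1* and 26.7 ± 0.219 for *EIF4EBP2* (SD, n = 3 each), against 3.76 ± 0.0228 for *EIF4E*, whose annotated exons are long.

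The paralogs of eIF5A, the factor that helps ribosomes through difficult peptide bonds and carries the amino acid hypusine, moved in opposite directions. *EIF5A* (chromosome 17, 7306999 to 7312463, plus strand) was at 545, 588 and 576 CPM in the control and 441, 433 and 454 CPM in the DAPT libraries. The groups were far apart, and the log2 fold change was -0.36 (SE 0.05, edgeR adjusted p = 4.23e-06), a fall from 570 ± 22.3 to 443 ± 10.4 CPM (SD, n = 3 each). *EIF5A2*, with far fewer reads, was at 30.1, 24.6 and 27.3 CPM in the control and 34.6, 30.6 and 33.6 CPM in the DAPT libraries. Here the lowest DAPT library lay just above the highest control library (log2 fold change 0.27, edgeR adjusted p = 0.0169), and the call passed in 3 of the 6 fits that left out a library. The copy *EIF5AL1* held at most 8 reads in any library and was not tested. *EIF6*, whose protein keeps the ribosomal subunits apart, was at 120, 138 and 138 CPM in the control and 115, 133 and 126 CPM in the DAPT libraries, which overlapped (log2 fold change -0.08). Without control replicate 1 its adjusted p was 0.0401 (edgeR).

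Whether partners or paralogs shifted against each other was read from ratios of CPM per kb within each library, for 8 pairs chosen after their values were seen. The smallest p that an exact two-sided permutation test of 3 against 3 libraries can give is 0.1, so these tests cannot pass a threshold of 0.05. The ratio of *EIF4EBP1* to *EIF4E* was 8.83, 10.8 and 10.3 in the control and 15.4, 13.7 and 15.5 in the DAPT libraries, which is 1.49 times higher (exact permutation p = 0.1). For *EIF5A2* to *EIF5A* it was 0.0268, 0.0202 and 0.0230 in the control and 0.0380, 0.0342 and 0.0359 in the DAPT libraries, 1.55 times higher (exact permutation p = 0.1). *EIF1* to *EIF5* stood at 2.55, 2.73 and 2.79 against 3.51, 3.14 and 3.33, and *EIF4G3* to *EIF4G1* at 0.170, 0.152 and 0.148 against 0.202, 0.214 and 0.204 (exact permutation p = 0.1 for both). In these 4 pairs the groups did not overlap. Neither did *EIF4EBP1* to *EIF4EBP2*, which was higher with DAPT at 1.40 ± 0.154 and 1.84 ± 0.0484, nor *EIF1B* to *EIF1*, which was lower at 0.108 ± 0.00354 and 0.0996 ± 0.00280 (SD, n = 3 each, exact permutation p = 0.1 for both). *EIF4G2* to *EIF4G1* overlapped, at 1.40 ± 0.111 and 1.63 ± 0.102 (SD, n = 3 each, exact permutation p = 0.2). *EIF4E2* to *EIF4E* overlapped as well, at 3.60 ± 0.0626 and 3.65 ± 0.181 (SD, n = 3 each, exact permutation p = 0.8). After Benjamini-Hochberg adjustment over the 8 pairs the smallest value was 0.133. In *EIF4EBP1* to *EIF4E*, *EIF5A2* to *EIF5A* and *EIF4EBP1* to *EIF4EBP2*, the numerator was higher and the denominator lower, each without overlap. These ratios therefore had to separate, which adds no support beyond the single genes.

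**Figure D4:**
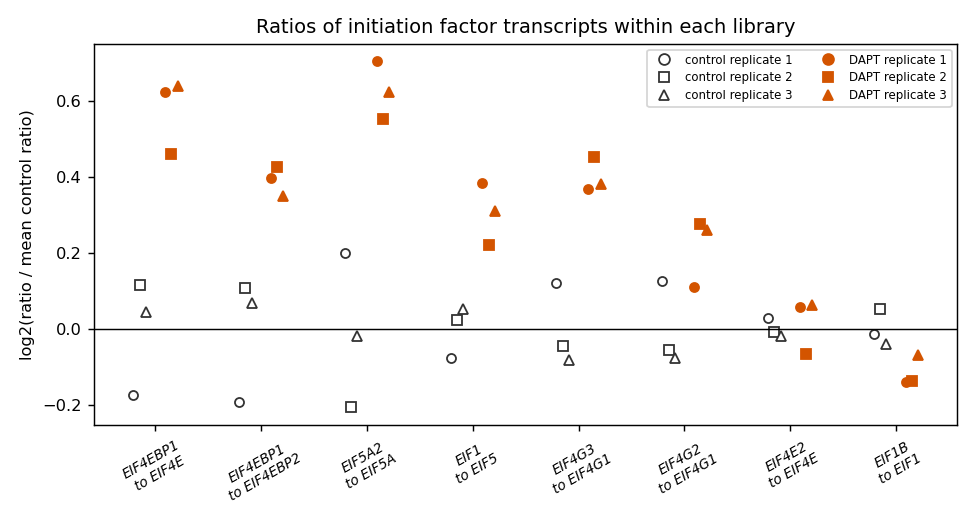
The y axis gives, for 8 pairs of genes, log2 of the ratio of their CPM per kb in a library over the mean ratio of the 3 control libraries, with open symbols for control and filled symbols for DAPT libraries. The ratios of *EIF4EBP1* to *EIF4E* and of *EIF5A2* to *EIF5A* were 1.49 and 1.55 times higher with DAPT without overlap, whereas those of *EIF4E2* to *EIF4E* overlap. The pairs were chosen after their values were seen. In both of the separated pairs named here each gene was already separate on its own, in opposite directions, so the ratios had to separate.

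The other genes of translation were taken from lists of 46 genes, of which 44 were tested. In edgeR's test 13 of the 44 rose and 4 fell. This is 38.6% called against 35.2% of all tested genes, and with at least 20 CPM it was 43.6% against 43.7%. The share called in either direction was therefore near the background. By direction, 29.5% rose and 9.09% fell, against 17.2% and 18.0% of all tested genes. Without control replicate 1, 13 rose and 7 fell. The list of kinases and phosphatases that act on initiation factors, with the mTOR pathway, had 8 of 18 genes higher and 0 lower, where 17.2% of all tested genes rose and 18.0% fell, and a median log2 fold change of 0.15. With at least 20 CPM, 8 of its 17 genes were called in either direction (47.1%), near the 43.7% of all such genes. All 8 were higher, where 22.0% of all such genes were higher and 21.7% lower. The list was chosen with earlier results of these data known. DESeq2 called 6 higher and limma-voom 7, with 0 lower in both and 0 lower at an unadjusted p under 0.05 in edgeR. Among them *PPP1R15A*, which brings a phosphatase to phosphorylated eIF2α under stress, was at 35.1, 36.5 and 38.8 CPM in the control and 81.9, 75.8 and 70.7 CPM in the DAPT libraries. Its groups were far apart (log2 fold change 1.05, SE 0.07, edgeR adjusted p = 8.2e-11). The constitutive paralog *PPP1R15B* rose by 0.30 on the log2 scale. Of the eIF2 kinases, *EIF2AK2* rose by 0.34 and *EIF2AK3* by 0.16, the latter with an adjusted p of 0.0416 (edgeR) that was 0.0836 without control replicate 1. *EIF2AK1* and *EIF2AK4* did not pass, at 0.08 and 0.06. The eIF4E kinases *MKNK1* and *MKNK2* rose by 0.26 and 0.39, and so did *TSC2* (0.33), an inhibitor of mTOR signaling, and *MTOR* (0.18).

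Of 13 partners at the mRNA ends and helicases, 5 rose and 2 fell, or 53.8% called against 35.2% of all tested genes. With at least 20 CPM it was 58.3% against 43.7%. *PAIP1*, which stimulates translation through the poly(A)-binding protein, rose by 0.24 on the log2 scale, while *PAIP2*, which inhibits it, had a log2 fold change of -0.19. *CTIF* (0.34), *DHX29* (0.25), *LARP1* (0.18), which represses TOP mRNAs, and *NCBP2* (0.15) were higher, and *NCBP1* (-0.18) was lower. Among 6 tested elongation factor genes 2 fell and 0 rose, where 18.0% of all tested genes fell and 17.2% rose. In either direction 33.3% were called, near the 35.2% of all tested genes. The count that rose was 0 also at an unadjusted p under 0.05, in DESeq2 and in limma-voom. Those that fell were *EEF1B2*, from 227 ± 3.50 to 171 ± 6.69 CPM (SD, n = 3 each, log2 fold change -0.41), and *EEF1D* (-0.15). *EEF1G* was listed at 0 reads in all libraries. Whether its reads went uncounted because they overlap or match another gene was not checked, so its level cannot be read from this. None of the 5 tested termination and recycling genes and of the 2 hypusine enzymes passed in edgeR, DESeq2 or limma-voom, and at an unadjusted p under 0.05 *DENR* (0.10) and *GSPT1* (-0.11) did. Without control replicate 1, *DENR* (log2 fold change 0.12, edgeR adjusted p = 0.0439) and the hypusine enzyme gene *DOHH* (-0.34, edgeR adjusted p = 0.0287) passed, as did *EEF2* (edgeR adjusted p = 0.00461) and *CYFIP1* (edgeR adjusted p = 0.0263). Of the called genes in these lists, *NCBP2* and *EIF2AK3* passed in 1, *EEF1D* in 2 and *MTOR* in 3 of the 6 fits that left out a library. In bulk RNA, fewer cells with a transcript and less of it per cell cannot be told apart for any of these genes.

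**Figure D5:**
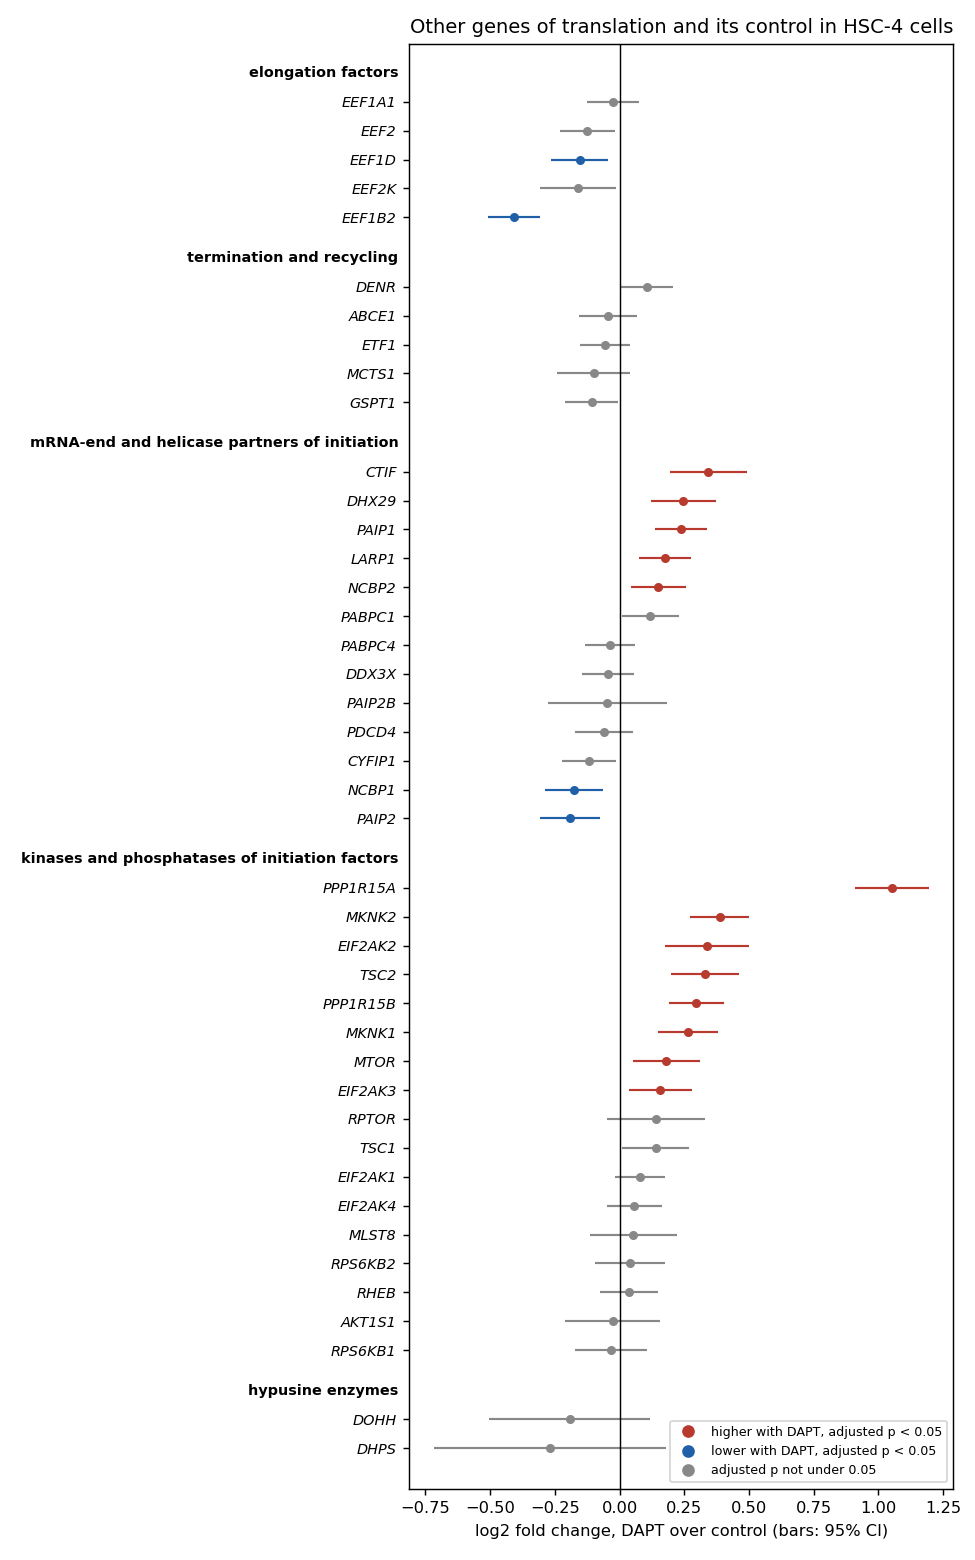
The x axis gives log2 fold changes of DAPT over control with 95% confidence intervals from edgeR for the other genes of translation, by list, leaving out *EEF1A2* and *DEPTOR*, which were read at under 2 CPM. In the list of kinases and phosphatases the 8 genes that passed lie to the right of 0, with *PPP1R15A* farthest at 1.05.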

How the data were processed

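Total RNA from HSC-4 cells was made into strand-specific mRNA libraries and sequenced from one end. According to the paper, the authors trimmed reads with Trim Galore and mapped them to GRCh38 with HISAT2. Per the file headers, featureCounts 1.6.3 counted reads over exons of Ensembl release 96 genes, and the deposited values are these raw read counts, without normalization. The submitters' processing notes also name HTSeq. By default, reads mapping to several places or overlapping several genes were not counted.

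Of 58884 genes, 58472 were matched to GENCODE release 44 for symbols and biotypes. Counts were compared with edgeR 4.0.16 in R 4.3.3 (low-count filter with minimum count 10, TMM, robust quasi-likelihood F test, Benjamini-Hochberg adjustment over 15001 genes, threshold 0.05). Standard errors follow from the test statistic. The procedure was tested on simulated counts. Alternatives used DESeq2 1.42.0, limma 3.58.1, other scaling and filters, offsets, a replicate block and each library left out. Libraries of a group differed from each other beyond sampling noise in a chi-square test of their counts. Per degree of freedom, chi-square was 5.38 and 5.3 for control replicate 1 against replicates 2 and 3, and 1.58 between those. For DAPT replicate 1 it was 4.12 and 3.93, and 1.81 between DAPT replicates 2 and 3.

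Members and lists were chosen with earlier results of these data known. Values per library are given for members with an adjusted p-value under 0.05 that are among the 3 largest changes of their group of factors, for *EIF4EBP* genes and for paralogs, and called genes of the other lists are named with their log2 fold change. Further genes given by library were chosen after their values were seen.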

Additional observations from a re-analysis of the deposited data

How the results depend on the processing

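The count of members that rose stayed between 6 and 10 when a library was left out, lowest without control replicate 3, and that of members that fell between 10 and 13. Of the 25 calls, 15 passed in all 6 of these fits, and *EIF5*, *EIF5B*, *EIF2S2*, *EIF2A*, *EIF3M*, *EIF4A2*, *EIF4B*, *EIF4G2*, *EIF4H* and *EIF5A2* did not. Leaving out control replicate 1 lost *EIF5B*, *EIF2A* and *EIF3M*, and leaving out DAPT replicate 1 lost *EIF2A*, *EIF4H* and *EIF5A2*. Each of the other 4 libraries, left out, cost 7 or 8 calls, among them *EIF4A2* and *EIF4G2* every time. DESeq2 and limma-voom each kept 23 of the 25 calls, the lost ones being *EIF5B* and *EIF2A* in both. 0 called members changed direction in any alternative. Leaving out a library moved the median log2 fold change of eIF2B between -0.094 and -0.0027 and that of eIF5A and eIF6 between -0.15 and -0.026. Scaling by library size alone lifted the median of all tested genes from 0.01 to 0.056, and it gave 11 members higher and 10 lower and 3445 of all 5601 calls higher, where TMM gave 2574 of 5281. The medians became 0.21 for the scanning factors, -0.013 for eIF2 and its alternatives, 0.015 for eIF2B, -0.089 for eIF3, -0.097 for eIF4 and -0.035 for eIF5A and eIF6. Under this scaling *EIF2B2* turned to 0.015 and *EIF3G* to 0.034. The offset for gene length gave medians of -0.026 for eIF2 and its alternatives and -0.015 for eIF5A and eIF6, with *EIF3G* at 0.036. The offset for GC content and length, added after the data were seen, gave 0.028 for eIF5A and eIF6 as for *EIF6*, and 0.079 for *EIF3G*. Without a low-count filter, which adds genes with few reads, the medians were -0.068 for EIF4EBP and 1.75e-05 for eIF5A and eIF6. With libraries left out, uncalled genes near 0 changed sign, with *EIF2B2* between -0.10 and 0.011, *EIF2B4* between -0.033 and 0.069, *EIF3C* between -0.28 and 0.12 and *EIF3G* between -0.052 and 0.0096. The cause of these shifts was not tested.

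The replicate block, which pairs libraries by the number in their label, kept all 25 calls. Over 11377 genes, libraries sharing a number deviated from their groups' means with correlations of 0.0634, 0.0853 and 0.0174, and nothing in the labels says that the numbers mark shared handling. With the offset for GC content and length, this replicate block gave 0.027 for eIF5A and eIF6 as for *EIF6*, and 0.078 for *EIF3G*. Depth limits the genes with few reads most.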

Other observations

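Start sites with a C followed by at least 4 pyrimidines were also looked at over all tested genes with a promoter entry. Of the 813 genes with such a start, 189 fell (23.2%) and 139 rose (17.1%), with a median log2 fold change of -0.03. Of the 10260 genes without one, 18.3% fell and 18.5% rose, and the median was 0.01. For CACGTG the shares that fell were 19.4% with and 18.5% without the letters. These are descriptions with no test, and the 813 genes include many that are no initiation factors.

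The 10 members that rose and the 15 that fell were alike in exonic length, with medians of 5836 and 6005 bases. Their median GC contents were 45.8% and 48.8%, against 50.3% for the 22 others. Those others were read at lower levels, with a median of 68.9 CPM against 241 and 161 CPM.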
